A study of Mus musculus with 12 samples.

Results

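A set of 10 miRNAs known mainly from liver, gut, kidney, pancreatic islets and epithelia was followed in small RNA libraries from the mitochondrial fraction of mouse hearts. They were taken by name from the rows of the table: mmu-miR-122-5p, mmu-miR-192-5p, mmu-miR-194-5p, mmu-miR-200a-3p, mmu-miR-200b-3p, mmu-miR-200c-3p, mmu-miR-429-3p, mmu-miR-141-3p, mmu-miR-375-3p and mmu-miR-203-3p. All 10 had a row among the 932 rows of the table, of which 730 carried a mouse miRNA name. The libraries comprised 6 from db/db mice, a leptin receptor mutant that grows obese and diabetic, and 6 from wild-type (WT) mice. Both groups were RNA of cardiac mitochondria, and per the labels' protocols adapters were ligated, the product was amplified by PCR and the libraries were size-selected on a gel. The sources used here give no age, sex, strain background or way of isolating mitochondria, and do not say whether animals were pooled. The labels number the samples 1 to 6 in each genotype without saying that each was a separate animal, so each p-value rests on sample-to-sample spread that may be technical only.

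These miRNAs belong to distinct tissue programmes. miR-122 is the dominant miRNA of hepatocytes, where it acts on cholesterol and lipid metabolism. miR-192 and miR-194 are made together from a shared cluster that hepatocyte nuclear factors drive in liver, intestine and kidney. The miR-200 family (miR-200a, miR-200b, miR-200c, miR-141 and miR-429) keeps cells epithelial by repressing the transcription factors Zeb1 and Zeb2. miR-375 is abundant in insulin-producing beta cells of mice and restrains insulin secretion, and miR-203 promotes differentiation of skin keratinocytes by repressing p63. A miRNA finds its targets mainly through its seed, bases 2 to 8 counted from its 5′ end.

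The mature sequences are shown because the seed sorts the miR-200 family into a pair of target classes and because close relatives bear on how reads were assigned. RefSeq sequences (GRCm38.p6 table) are printed for 8 of the 10 members, 5′ to 3′ with the seed in capitals. The RefSeq table held none for miR-375-3p, and miR-122-5p was not looked up.
mmu-miR-192-5p: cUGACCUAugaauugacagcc
mmu-miR-194-5p: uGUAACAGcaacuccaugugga
mmu-miR-200b-3p: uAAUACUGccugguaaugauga
mmu-miR-200c-3p: uAAUACUGccggguaaugaugga
mmu-miR-429-3p: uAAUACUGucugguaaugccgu
mmu-miR-200a-3p: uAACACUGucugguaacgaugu
mmu-miR-141-3p: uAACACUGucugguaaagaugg
mmu-miR-203-3p: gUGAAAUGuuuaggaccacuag

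miR-200b-3p, miR-200c-3p and miR-429-3p shared 1 seed, and miR-200a-3p and miR-141-3p shared another that differs from it by U4C, with positions counted from the 5′ end of the mature miRNA. Over 22 aligned positions miR-200c-3p differed from miR-200b-3p by U11G and A22G and carried 1 further base at its 3′ end, while miR-141-3p differed from miR-200a-3p by C17A and U22G. Reads of such close relatives could be split between rows by the authors' counting, so the level of each is given beside the sum over its family. No other named row that was compared had the seed of the miR-200 family, of miR-194 or of miR-203. The RefSeq table held a sequence for 635 of the 730 named rows. Rows encoded only on the chromosome that carries Mir122 were left out of the comparison, miR-122-5p among them. miR-192-5p shared its seed with miR-215-5p, its relative of gut and kidney.

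Positions relative to other genes were read from a GRCm38 annotation, and no coordinates are given because the table was made on GRCm39. Mir200b, Mir200a and Mir429 neighbour each other on chromosome 4 in an intron of Ttll10 on the same strand, with Mir429 also in an exon of the noncoding Gm13648. Mir200c and Mir141 neighbour each other on chromosome 6 in an intron of the noncoding Gm15884. Mir192 lies beside Mir194-2 on chromosome 19, and Mir194-1 lies beside Mir215 on chromosome 1, so mature miR-194-5p can come from either precursor. Mir203 on chromosome 12 overlapped no other annotated gene and had no neighbouring miRNA gene on the same strand. Neighbours on the opposite strand were not searched.

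The deposited values were taken as RPM, reads scaled to a library total of 1000000, and whole reads could be recovered from them. Depth lay between 412749 reads (db/db library 6) and 1382046 reads (db/db library 5). It averaged 798579 ± 316652 reads in db/db and 747539 ± 159277 reads in WT libraries (SD, n = 6 per genotype), a difference with a two-sided exact permutation p of 0.777. A single read corresponded to 0.724 to 2.42 RPM, so a miRNA listed at 0 could still have stood as high as 3 reads, or 2.17 to 7.27 RPM. The shallowest library of each genotype was db/db library 6 (412749 reads) and WT library 4 (551591 reads), and a member value that changes sign without this pair is given beside its result. The 5 heart muscle markers (miR-133a-3p, miR-1a-3p, both arms of miR-208a and miR-499-5p) were above 0 in all 12 libraries and summed to 338731 to 440054 RPM in db/db and 367382 to 421300.5 RPM in WT libraries. Most of the heart muscle sum was miR-133a-3p, at 296270 to 371152 RPM in db/db and 306292 to 367506 RPM in WT. miR-208a-3p was much lower, at 1.38 to 50.6 RPM in db/db and 12.2 to 138 RPM in WT (limma adjusted p = 0.504). Its lowest value, in db/db library 1, was 1 read. The heart label thus fits its defining markers, mainly through miR-133a-3p and miR-1a-3p. Summed markers of other cell types were 18260 to 30614 RPM in db/db and 9900.3 to 21106 RPM in WT for red cells (3 of 3 markers listed). Most of this sum was miR-486a-5p, at 17055 to 26878 RPM in db/db and 8605 to 20124 RPM in WT. miR-451a had 290 to 3721 RPM in db/db and 850 to 1685 RPM in WT. miR-144-3p had 2.75 to 23.5 RPM in db/db and 1.81 to 17.4 RPM in WT. The summed markers were 15588 to 25095 RPM in db/db and 18852 to 29569 RPM in WT for endothelium (2 of 2). Those of fibroblasts and smooth muscle came to 23978 to 38345 RPM in db/db and 33026 to 46234 RPM in WT (4 of 4). Most of that sum was miR-143-3p, at 16745 to 28953 RPM in db/db and 23602 to 36598 RPM in WT. Of the 4 fibroblast and smooth muscle markers, 2 had positive and 2 negative log2 fold changes. The leukocyte markers summed to 2906 to 6701 RPM in db/db and 3225 to 5087 RPM in WT (4 of 4). Most of the leukocyte sum was miR-150-5p, at 2589 to 6326 RPM in db/db and 2652 to 4655 RPM in WT. miR-223-3p had 175 to 289 RPM in db/db and 306 to 478 RPM in WT, without being called (limma adjusted p = 0.109). How many of all rows have ranges that do not overlap was not counted. miR-486a-5p (log2 fold change 0.53) and miR-143-3p (-0.48) were not called either, each at a limma adjusted p of 0.0869. The log2 fold changes of the 4 leukocyte markers were 2 positive and 2 negative. In bulk RNA, fewer cells of a type and less RNA per cell cannot be told apart. The part of these cell types in the values below was not tested.

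The members were minor constituents of the cardiac libraries. Together they summed to 678 ± 117 RPM in db/db and 813 ± 118 RPM in WT libraries (SD, n = 6 each), which is 0.0678% of reads in db/db and 0.0813% in WT. Across all 12 libraries the sum ran between 519 and 967 RPM. miR-192-5p, the most abundant member, ranked 103 among the 730 named rows by mean RPM, followed by miR-194-5p at rank 113 and miR-203-3p at rank 141. miR-200c-3p and miR-200b-3p stood at ranks 220 and 222, miR-200a-3p at 310 and miR-122-5p at 352. miR-141-3p, miR-429-3p and miR-375-3p lay at ranks 527, 614 and 659. The muscle miRNA miR-133a-3p, the most abundant of all, exceeded miR-192-5p 1066-fold and miR-122-5p 67624-fold in mean RPM.

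**Figure D1:**
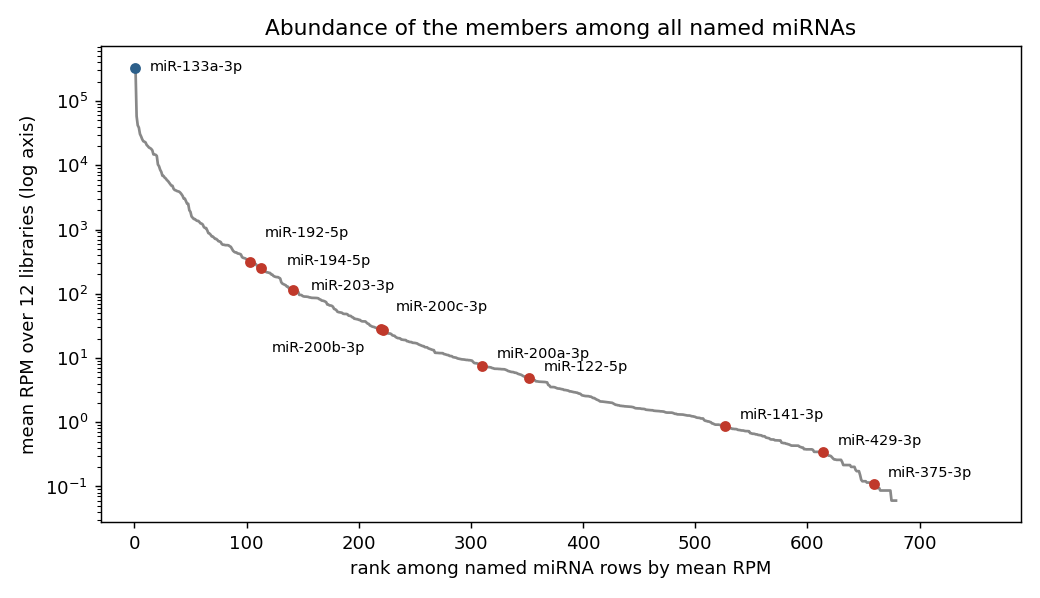
Mean RPM over 12 libraries (log axis) against rank for every named miRNA row above 0 (grey line), with the 10 members in red and miR-133a-3p in blue. The members lie between rank 103 (miR-192-5p) and rank 659 (miR-375-3p), spread over the middle and tail of the curve.

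miR-192-5p and miR-194-5p, each above 100 RPM in all 12 libraries, made up most of the sum in every library. miR-203-3p followed at 119 RPM in db/db and 109 RPM in WT on average, and the 5 members of the miR-200 family together averaged 59.7 RPM in db/db and 67.9 RPM in WT. Both the liver-specific miR-122-5p and the islet miRNA miR-375-3p were at 0 in most libraries. miR-122-5p was above 0 in 4 of 12 libraries and miR-375-3p in 1 of 12, while 5 members (miR-192-5p, miR-194-5p, miR-203-3p, miR-200b-3p and miR-200c-3p) were above 0 in all 12.

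**Figure D2:**
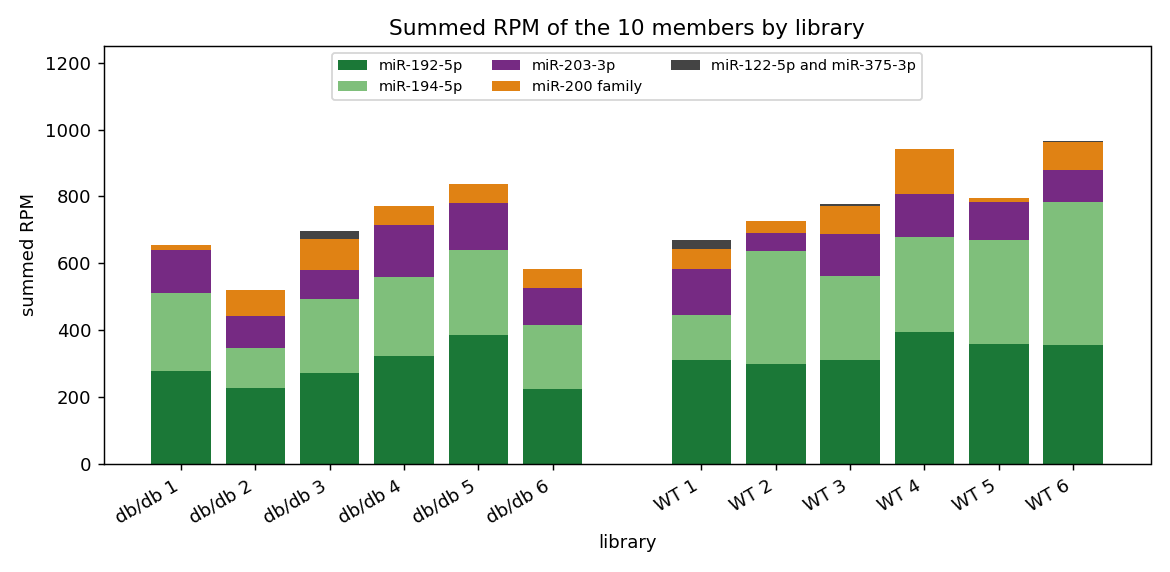
Summed RPM of the 10 members in each library, db/db libraries left and WT libraries right, stacked by member or family. miR-192-5p and miR-194-5p form the larger part of every bar, and the totals run from 519 to 836 RPM in db/db and from 670 to 967 RPM in WT libraries.

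The comparison of the genotypes asks which miRNAs in heart mitochondria change in diabetes. No member was called in db/db against WT. Of the 10, 7 had a mean of at least 1 RPM and entered the limma fit over 646 rows, where 0 of 7 had an adjusted p under 0.05 and 0 of 7 an unadjusted p under 0.05. In the whole table that fit called 1 row, 0.155% of those tested, and 8.98% had an unadjusted p under 0.05. edgeR's quasi-likelihood test on the recovered reads called 0 of the 7, against 0.464% of all rows. DESeq2 gave an adjusted p to 3 of them, miR-192-5p, miR-194-5p and miR-203-3p, and called 0, against 8.97% of the 145 rows with an adjusted p. Neither of these tools had a member at an unadjusted p under 0.05, against 24.6% of all rows in edgeR and 7.21% of rows with a p in DESeq2. The median log2 fold change of the 7 tested members was -0.21, with 4 negative and 3 positive, against -0.04 over all 646 rows, of which 52.3% were negative. For every member the values of db/db and WT libraries overlapped, which for miR-122-5p, miR-141-3p, miR-375-3p and miR-429-3p follows from values of 0 in both genotypes. How many of all rows overlap was not counted, so nothing particular to the members is read from this.

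**Figure D3:**
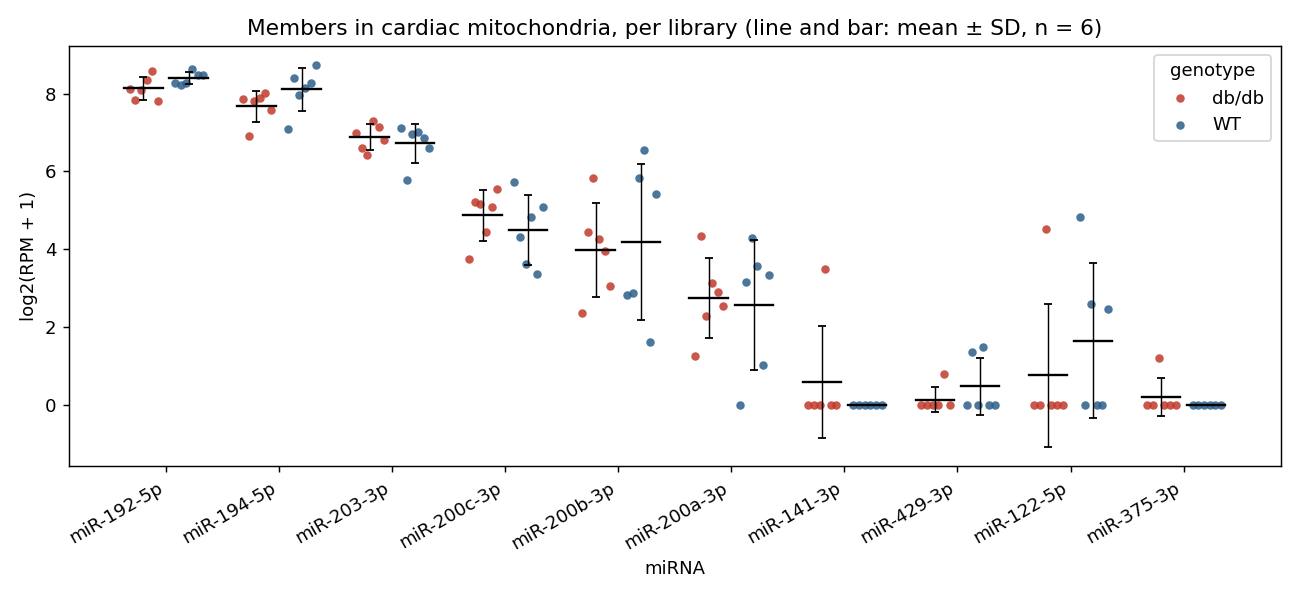
log2(RPM + 1) of each member in every library, db/db (red) left of WT (blue), with the mean and SD of 6 libraries as a line and bar. The genotypes overlap for all 10 members, and miR-141-3p, miR-429-3p, miR-122-5p and miR-375-3p lie at 0 in most libraries.

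miR-192-5p and miR-194-5p, the liver, gut and kidney pair, had lower means in db/db libraries without passing the test. miR-192-5p had 225, 275 and 384 RPM (lowest, median, highest) in db/db libraries, against 298, 334 and 395 RPM in WT libraries. Of the 6 db/db libraries, 5 were under the WT median and 4 lay below the whole WT range, while db/db library 5 reached the upper WT values. It averaged 285 ± 60.6 RPM in db/db and 339 ± 37.7 RPM in WT libraries (SD, n = 6 each). On the log2 scale db/db minus WT came to -0.27 ± 0.21 (SE), with a 95% interval of -0.69 to 0.16 and a limma adjusted p of 0.717. miR-194-5p had 119, 228 and 256 RPM in db/db libraries, against 136, 297 and 426 RPM in WT libraries. All 6 db/db libraries were below the WT median, but WT library 1, at 136 RPM, was below 5 of them. It averaged 209 ± 49.6 RPM in db/db and 291 ± 96.5 RPM in WT libraries (SD, n = 6 each). Its log2 fold change was -0.43 ± 0.25 (SE; limma adjusted p = 0.717), with a 95% interval of -0.93 to 0.06. Without WT library 1 it was -0.64 ± 0.24 (SE; limma adjusted p = 0.288, unadjusted p = 0.0103), and without db/db library 2 it was -0.28 (limma adjusted p = 0.782). The other omissions of 1 library lay between these values. edgeR gave -0.43 (adjusted p = 0.244) and DESeq2 -0.41 (adjusted p = 0.466) with all libraries. Together the pair summed to 495 ± 104 RPM in db/db and 630 ± 114 RPM in WT libraries (SD, n = 6 each).

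The ratio of miR-192-5p to miR-194-5p was above 1 in all 6 db/db and in 4 of 6 WT libraries. It ran from 1.19 to 1.92 with a median of 1.29 in db/db and from 0.837 to 2.29 with a median of 1.20 in WT libraries. Both of its ends thus lay in WT, at library 6 and library 1. Of the rows that share these precursors, miR-194-2-3p, the opposite arm from the Mir194-2 precursor, was above 0 in 7 of 12 libraries and averaged 3.96 ± 6.28 RPM in db/db and 8.97 ± 8.26 RPM in WT libraries (SD, n = 6 each), which is -1.14 ± 1.05 (SE) as a log2 fold change with a limma adjusted p of 0.717. miR-194-1-3p, the opposite arm from the Mir194-1 precursor, was 0 in all 12. miR-215-5p, the neighbour of Mir194-1 and seed mate of miR-192-5p, averaged 12.7 ± 8.55 RPM in db/db and 8.78 ± 7.08 RPM in WT libraries (SD, n = 6 each), which is 0.54 ± 0.94 (SE) as a log2 fold change with a limma adjusted p of 0.823. miR-215-5p was above 0 in 10 of 12 libraries, so rows of both miR-194 clusters had reads.

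The precursor of miR-192 is shown with the member arm in capitals (bases 14 to 34 of the 89-base RefSeq hairpin), followed by the precursors of miR-203 (bases 48 to 69 of 76) and miR-200b (bases 45 to 66 of 70), because the arm counted here lies on the 5′ side in Mir192 and on the 3′ side in Mir203 and Mir200b.
Mir192: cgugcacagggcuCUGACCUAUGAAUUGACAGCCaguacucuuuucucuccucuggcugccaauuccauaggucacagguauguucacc
Mir203: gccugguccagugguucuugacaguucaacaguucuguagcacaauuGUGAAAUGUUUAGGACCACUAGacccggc
Mir200b: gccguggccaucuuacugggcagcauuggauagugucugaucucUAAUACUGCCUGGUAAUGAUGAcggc

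Of the 11 opposite arms of the members, 3 had a row in the table (miR-194-1-3p, miR-194-2-3p and miR-203-5p), and the other 8 are not analysed here. miR-203-5p was above 0 in db/db library 6 alone, at 4.85 RPM, which is 2 reads.

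miR-203-3p, the keratinocyte miRNA, had 84.2, 119 and 156 RPM (lowest, median, highest) in db/db libraries, against 53.7, 120 and 137 RPM in WT libraries. The medians nearly coincided, and 3 of 6 db/db libraries were above the WT median. WT library 2 was the lowest of all 12. Set against miR-192-5p in the same library, miR-203-3p stood at 0.311 to 0.495 with a median of 0.439 in db/db and at 0.180 to 0.441 with a median of 0.323 in WT libraries. miR-203-3p averaged 119 ± 27.2 RPM in db/db and 109 ± 30.6 RPM in WT libraries (SD, n = 6 each). The log2 difference of db/db minus WT was 0.16 ± 0.29 (SE), with a 95% interval of -0.43 to 0.74 and a limma adjusted p of 0.832. Without WT library 2 the value was -0.035 (limma adjusted p = 0.963).

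The miR-200 family, the epithelial repressors of Zeb1 and Zeb2, summed to 59.7 ± 25.5 RPM in db/db and 67.9 ± 42.5 RPM in WT libraries (SD, n = 6 each). The sum ran from 17.9 RPM in db/db library 1 to 94.5 RPM in db/db library 3, and from 12.5 RPM in WT library 5 to 132 RPM in WT library 4. The lowest library of each genotype therefore held a small part of what the highest held. Most of the family's reads carried the seed of miR-200b, miR-200c and miR-429, at 50.7 ± 24.3 RPM in db/db and 60.0 ± 38.8 RPM in WT libraries (SD, n = 6 each). The seed of miR-200a and miR-141 stood at 9.01 ± 7.71 RPM in db/db and 7.94 ± 6.88 RPM in WT libraries (SD, n = 6 each).

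Of the 5 members above 0 in all 12 libraries, miR-200b-3p had the largest fold between its highest and lowest library in both genotypes. It had 4.13, 20.7, 55.7, 18.1, 14.5 and 7.27 RPM in db/db libraries 1 to 6, against 6.10, 6.32, 56.2, 92.5, 2.08 and 42.0 RPM in WT libraries 1 to 6. In WT, libraries 3, 4 and 6 were high and 1, 2 and 5 low, and in db/db library 3 alone was high. The highest db/db library exceeded the lowest 13.5-fold, and the highest WT library the lowest 44.5-fold. These folds are imprecise, since the lowest libraries held 3 reads (db/db library 1) and 2 reads (WT library 5). The log2 fold change was -0.21 ± 0.72 (SE; limma adjusted p = 0.922), with a 95% interval of -1.65 to 1.23. The value was positive without db/db library 1 (0.12), WT library 3 (0.12), WT library 4 (0.26) or WT library 6 (0.039), and without the shallowest pair, WT library 4 and db/db library 6 (0.45), while edgeR gave -0.68 (adjusted p = 0.652) on the recovered reads.

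miR-200a-3p, from the same cluster, had 1.38, 19.3, 3.88, 7.75, 6.51 and 4.85 RPM in db/db libraries 1 to 6, against 0, 7.89, 18.7, 10.9, 1.04 and 9.08 RPM in WT libraries 1 to 6. These are 35 reads in each genotype. The log2 fold change was 0.18 ± 0.95 (SE; limma adjusted p = 0.951), with a 95% interval of -1.72 to 2.08, and it was negative by edgeR (-0.029). It was also negative without db/db library 2 (-0.14), WT library 1 (-0.33) or WT library 5 (-0.13). miR-429-3p, the third member of the cluster, had 1 read in db/db and 2 reads in WT libraries, a pooled 0.209 RPM (exact Poisson 95% interval 0.00528 to 1.16) in db/db and 0.446 RPM (0.0540 to 1.61) in WT. These intervals cover counting error only. A difference in miR-429-3p was not detectable at this depth.

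miR-200c-3p, from the other cluster, had 12.4, 34.1 and 46.03 RPM (lowest, median, highest) in db/db libraries, against 9.35, 23.1 and 51.9 RPM in WT libraries. The highest value was in WT library 1 and the lowest in WT library 5, so the db/db range lay inside the WT range. It averaged 30.5 ± 12.0 RPM in db/db and 25.3 ± 15.9 RPM in WT libraries (SD, n = 6 each). Its log2 difference between the genotypes was 0.38 ± 0.53 (SE), with a 95% interval of -0.68 to 1.44 and a limma adjusted p of 0.770. With 1 library left out it ran from 0.16 (without WT library 5) to 0.63 (without WT library 1), and it was 0.21 without WT library 3. miR-141-3p, its cluster partner, was above 0 in db/db library 4 alone, at 10.3 RPM (8 reads). It had 0 reads in the other 11 libraries, which over the 6 WT libraries allows up to 0.669 RPM. miR-200c-3p thus had reads in all 12 libraries and its partner in 1.

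miR-122-5p, the hepatocyte miRNA, appeared in few libraries. It had 22.01 RPM (17 reads) in db/db library 3 and 0 in the other 5 db/db libraries, against 27.5 RPM (18 reads) in WT library 1, 4.99 RPM (4 reads) in WT library 3, 4.54 RPM (4 reads) in WT library 6 and 0 in the other 3. The pooled level was 3.55 RPM (exact Poisson 95% interval 2.07 to 5.68) in db/db and 5.80 RPM (3.79 to 8.49) in WT. The log2 fold change was -0.89 ± 0.98 (SE; limma adjusted p = 0.723), and a pseudocount of 0.1 or 10 RPM in place of 1 moved it to -1.92 or -0.23. It was -1.65 without db/db library 3 and -0.26 without WT library 1. In the 8 libraries with miR-122-5p at 0, miR-192-5p ran between 225 and 395 RPM, and in the other 4 between 271 and 356 RPM. Whether miR-122-5p and miR-192-5p came from the same cells was not tested. miR-375-3p, the islet miRNA, had 1 read in db/db library 3 (1.29 RPM) and 0 in the other 11 libraries. Over the 6 WT libraries 0 reads allows up to 0.669 RPM.

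**Figure D4:**
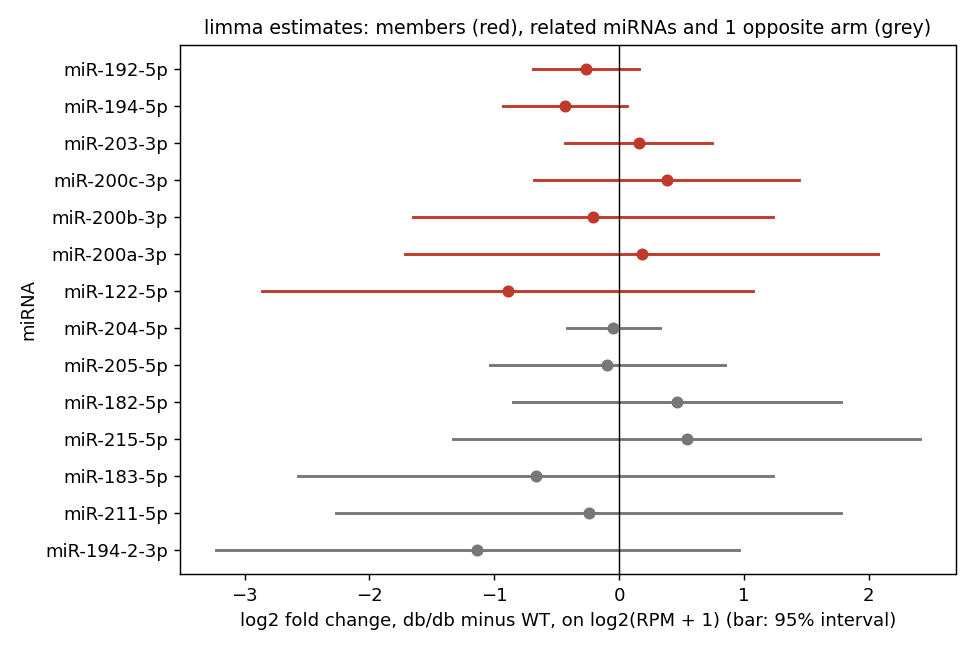
Log2 fold change of db/db minus WT on the log2(RPM + 1) scale with its 95% interval from limma, for the 7 tested members (red) and for 6 related miRNAs and 1 opposite arm (grey). All 14 intervals include 0, and among the 7 members the narrowest is that of miR-192-5p and the widest that of miR-122-5p.

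The spread between libraries was set against the spread that counting alone would give at these depths. In db/db libraries the SD of miR-192-5p was 2.93 times and that of miR-194-5p 2.82 times the counting SD, and in WT libraries they were 1.74 times and 4.75 times it. Among the 79 other named rows with a mean of 100 to 1000 RPM the median of this ratio was 3.38 in db/db (quartiles 2.40 and 4.69) and 3.49 in WT libraries (2.78 and 4.65). miR-200b-3p reached 3.45 times in db/db and 5.43 times in WT libraries, where the 139 other named rows of 10 to 100 RPM had a median of 2.49 in db/db (quartiles 1.95 and 3.23) and 2.57 in WT libraries (2.06 and 3.19). miR-200c-3p stood at 1.85 times in db/db and 2.74 times in WT, and miR-203-3p at 2.06 times in db/db and 2.48 times in WT. Among other named rows of 1 to 10 RPM the quartiles were 1.68 and 2.77 in db/db (206 rows) and 1.76 and 2.74 in WT (210 rows). miR-122-5p, at 0 in most libraries, stood at 4.01 times in db/db and 3.77 times in WT, and miR-200a-3p at 1.96 and 2.09 times. Against the quartiles of its abundance class, miR-200b-3p lay above the upper in both genotypes, as did miR-122-5p, and miR-194-5p lay above it in WT. miR-203-3p lay below the lower quartile in both genotypes, miR-200c-3p below it in db/db and miR-192-5p below it in WT. With a mean of 114 RPM, miR-203-3p stood at the lower edge of its class. Its ratios lay within the quartiles of the 10 to 100 RPM class in both genotypes.

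Cluster partners were compared across the 12 libraries in 5 pairs. miR-200b-3p and miR-200a-3p had Spearman's rho 0.73 (permutation p = 0.00979, adjusted over the 5 pairs 0.0490) and Pearson's r 0.67 (permutation p = 0.0168, adjusted 0.0679) on log2(RPM + 1). Within db/db libraries rho was 0.43 (exact permutation p = 0.419, n = 6; adjusted 1) and within WT libraries 0.89 (exact permutation p = 0.0333, n = 6; adjusted 0.133), so the adjusted call did not hold within either genotype. Without the 2 libraries farthest from the median of miR-200b-3p rho was 0.61 and r 0.59 (permutation p = 0.0675 and 0.0703, n = 10; adjusted p of rho 0.337), so the call was lost with fewer libraries. miR-192-5p and miR-194-5p had rho 0.65 (permutation p = 0.0264, adjusted 0.0659) and r 0.63 (permutation p = 0.0272, adjusted 0.0679). Within db/db libraries rho was 0.94 (exact permutation p = 0.0167, n = 6; adjusted 0.0833) and within WT libraries 0.03 (exact permutation p = 1, n = 6). Whether the genotypes differ in this relation was not tested. Without the 2 libraries farthest from the median of miR-192-5p rho was 0.48 and r 0.37 (permutation p = 0.167 and 0.303, n = 10). The 3 pairs with miR-429-3p or miR-141-3p, which were at 0 in 9 and 11 of the 12 libraries, gave rho of -0.13 to 0.28 (adjusted permutation p of 0.627 to 0.834).

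**Figure D5:**
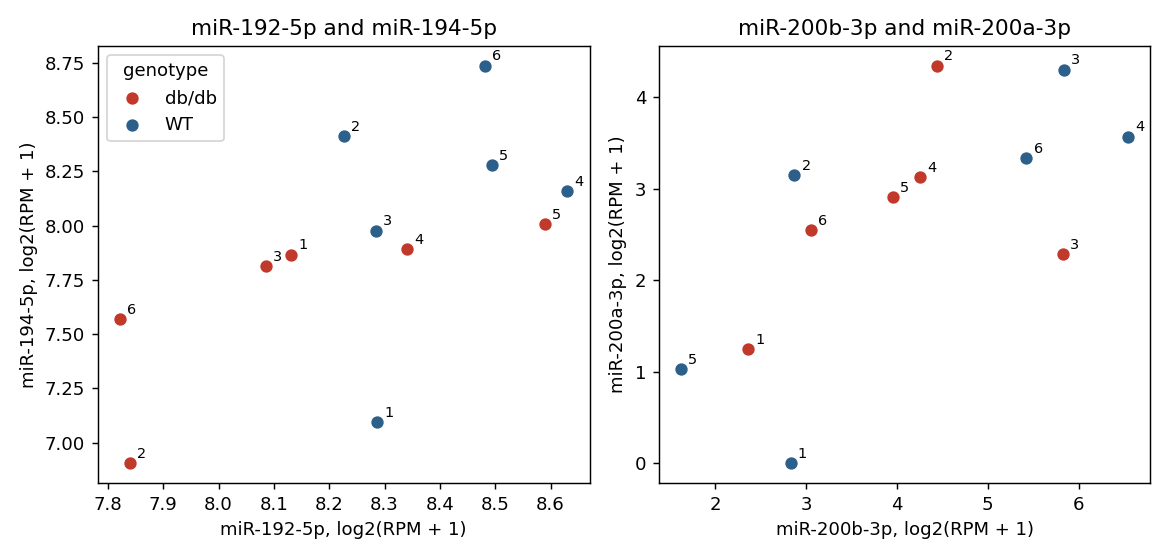
log2(RPM + 1) of miR-194-5p against miR-192-5p (left) and of miR-200a-3p against miR-200b-3p (right), 1 point for each library with its sample number, db/db in red and WT in blue. WT library 1 lies low in both partners on the y axis, with miR-194-5p at 136 RPM and miR-200a-3p at 0.

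A list of 14 further miRNAs of epithelia, gut, kidney, liver and pancreas gave the surroundings of the members. Of these 7 had a row, 6 were tested, and limma called 0 in either direction, with 0 at an unadjusted p under 0.05. Over all rows limma called 0.155%, and 8.98% had an unadjusted p under 0.05. miR-204-5p, a miRNA of kidney and retinal pigment epithelium, was the most abundant, at 495 ± 73.4 RPM in db/db and 508 ± 34.5 RPM in WT libraries (SD, n = 6 each), which is above the mean of every member. Its log2 fold change was -0.05 ± 0.19 (SE) with a limma adjusted p of 0.935. miR-205-5p, which acts with the miR-200 family on Zeb1 and Zeb2, had 17.96, 32.9 and 80.0 RPM (lowest, median, highest) in db/db libraries, against 14.5, 31.4 and 123 RPM in WT libraries. Its log2 fold change was -0.09 ± 0.47 (SE) with a limma adjusted p of 0.951. miR-182-5p, of the sensory and epithelial miR-183 cluster, averaged 19.6 ± 9.66 RPM in db/db and 14.9 ± 9.28 RPM in WT libraries, and miR-183-5p 5.05 ± 5.81 RPM in db/db and 9.52 ± 9.42 RPM in WT libraries (SD, n = 6 each; limma adjusted p = 0.770 for both). miR-211-5p, a relative of miR-204 known from melanocytes, averaged 6.10 ± 6.42 RPM in db/db and 5.72 ± 4.77 RPM in WT libraries (SD, n = 6 each; limma adjusted p = 0.939). miR-96-5p, of the same cluster as miR-182 and miR-183, was above 0 in 4 of 12 libraries. The 7 epithelial markers (the miR-200 family, miR-203-3p and miR-205-5p) summed to 173 to 261 RPM in db/db and 140.5 to 303 RPM in WT libraries, with none of the 7 at 0 in every library.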

How the data were processed

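Small RNA of cardiac mitochondria from 6 db/db and 6 WT samples was analysed from 1 deposited table. The authors called their deposited values TPM. Since every column adds up to 1000000 in whole steps of 1 read with no length term, the deposited values are RPM, read counts the authors scaled to the library total. Their build is GRCm39 according to the submitters' processing notes; the sources used here name no aligner or annotation. Dividing by the value of 1 read gave back read numbers, and 100% of values lay within 0.01 of a whole number.

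Genotypes were compared with limma 3.58.1 in R 4.3.3 (trended prior variance) on log2(RPM + 1). The fit took the 646 rows averaging 1 RPM or more, two-sided, with Benjamini-Hochberg adjustment over all of them and calls under 0.05. Fold changes on this scale understate changes of low miRNAs. Fits that leave out libraries applied the same filter to the libraries kept. As alternatives, the recovered read counts went into edgeR 4.0.16 (TMM factors, quasi-likelihood) and DESeq2 1.42.0. Correlations used 100000 resamples, or all orders for 6 libraries. All 66 library pairs differed by more than counting noise, with chi-square over its degrees of freedom at 18.6 or more. Unnamed rows (202) held 0.0574 to 0.160% of reads. Poisson intervals and the 3-read floor cover counting error only. limma was tested on simulated data.

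Members and lists were chosen with earlier results of these data known. Named besides the members were opposite arms and related miRNAs with a mean of at least 1 RPM; miR-96-5p, miR-194-1-3p and miR-203-5p were added after their values were seen. Plots used matplotlib 3.10.9.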

Additional observations from a re-analysis of the deposited data

Results flagged for a closer look

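In 42 groups of 6 values, the highest or lowest library was compared with its nearest neighbour relative to the range, and 10 stood far from the others. For evenly spread values chance flags about 1 in 20 groups, a rate that does not apply to counts mostly at 0. Of the 10, 4 are members with reads in 1 of the 6 db/db libraries, which are flagged by construction: miR-122-5p at 22.01 RPM and miR-375-3p at 1.29 RPM in db/db library 3, miR-141-3p at 10.3 RPM in db/db library 4 and miR-429-3p at 0.724 RPM in db/db library 5. In WT, miR-122-5p was 27.5 RPM in library 1 and at most 4.99 RPM in the others. miR-200b-3p reached 55.7 RPM in db/db library 3, with 20.7 RPM the next highest value of its genotype. miR-200a-3p reached 19.3 RPM in db/db library 2, ahead of 7.75 RPM. miR-183-5p was also highest in db/db library 2, at 16.6 RPM against at most 4.85 RPM. miR-205-5p was 123 RPM in WT library 6 and at most 52.1 RPM in the other WT libraries. Depth was 1382046 reads for db/db library 5, and the next deepest db/db library had 773784.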

How the results depend on the processing

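No member was called under any of the 24 alternatives run. The count of rows called in the whole table did move. Against 1, limma gave 0 calls when the pseudocount was 0.1 or 10 RPM, with no filter, at a mean of at least 10 RPM, without a trend and without WT 4 and db/db 6, and the exact permutation test called 0. There were 2 calls when scaled by median of ratios, 9 with the replicate block and 10 with numbers 1 to 3 against 4 to 6 as a factor. edgeR called 3 and DESeq2 13. Leaving out 1 library gave 0 to 7 calls: dropping db/db 5 gave 7, dropping WT 1 gave 6, dropping WT 3 also 6, dropping db/db 4 gave 3, dropping db/db 6 gave 1, and the remaining 7 each gave 0. Same-numbered libraries correlated at -0.05 to 0.12 in their deviations, above 0.1 in 1 of 6, and 1 of 6 db/db libraries correlated best with its own number. Counting noise in low rows weakens such correlations, so they cannot decide whether the sample numbers pair the libraries. With the replicate block the lowest adjusted p of a member was 0.590 (miR-194-5p).

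miR-192-5p, miR-194-5p, miR-122-5p and miR-200c-3p kept their sign in every fit that tested them, and with 1 library left out ranged from -0.36 to -0.20, -0.64 to -0.28, -1.65 to -0.26 and 0.16 to 0.63 in that order. miR-200a-3p was negative with a pseudocount of 10 RPM (-0.027), by edgeR (-0.029) and by DESeq2 (-0.044), and ranged from -0.33 to 0.53 with 1 library left out. miR-200b-3p ranged from -0.72 to 0.26 and was 0.45 without WT 4 and db/db 6. miR-203-3p ranged from -0.035 (without WT 2) to 0.25. The rho of miR-200b-3p and miR-429-3p turned to -0.13 within db/db and to -0.28 without the 2 farthest libraries. The difference in depth ranged from -65654 to 128205 reads with 1 library left out. What causes these shifts was not tested. miR-141-3p, miR-429-3p and miR-375-3p, with 8, 3 and 1 reads in all, were tested only without a filter (limma adjusted p = 0.689, 0.706 and 0.760), except miR-141-3p also without WT 4 and db/db 6 (0.723).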
